A study of Homo sapiens with 8 samples.

Results

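The insulin and insulin-like growth factor (IGF) genes examined here were 8 in number: the receptor genes INSR, IGF1R and IGF2R, the receptor substrate genes IRS1 and IRS2, and the genes of the IGF2 mRNA-binding proteins IGF2BP1, IGF2BP2 and IGF2BP3. They were chosen by name, with earlier results of these data known. Of the 8, 7 were the named gene of at least 1 H3K9ac peak, out of 12186 genes named in either H3K9ac list. IGF2BP1 was named by no peak of either list. The members held 22 H3K9ac peaks, 5 of the 7141 astromal and 17 of the 20326 stromal ones. A further 16 H3K27ac peaks had their centre within 2 kb of one of these, 9 of 14489 astromal and 7 of 15093 stromal peaks. The H3K9ac lists served to choose the genes, so their H3K9ac values are given as a description, and nothing is read from them.

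The study asked how acetylation of histone H3 differs in MIA PaCa-2 cells, an established line from a human pancreatic carcinoma, between a culture with stromal cues and one without. Chromatin was immunoprecipitated with antibodies against H3K9ac or H3K27ac and sequenced, with 1 library for each mark and condition, so no difference has a replicate check and none was given a p-value. All cells grew as spheroids inside a hyaluronan hydrogel crosslinked with PEGDA. In the astromal cultures the gel held Glycosil (the hyaluronan component), crosslinker and water, and the cells received DMEM with 2% FBS. In the stromal cultures Gelin-S, a collagen-derived component, took the place of the water. Those cells received DMEM with 2% FBS that had stood for 48 h on immortalized myofibroblasts grown out of resected human pancreatic tumours. The stromal condition therefore joined the gel component and the conditioned medium, whose effects cannot be told apart, and the labels describe no myofibroblasts in the gel. Both conditions used the same cell line. The 4 input libraries were not used here other than through the authors' fold over input.

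Insulin and the IGFs bind INSR and IGF1R, receptor tyrosine kinases at the cell surface, which phosphorylate the docking proteins IRS1 and IRS2 and so recruit PI3K and its downstream kinase AKT. IGF2R, also the cation-independent mannose 6-phosphate receptor, takes up IGF2 and delivers it to lysosomes and carries no kinase domain. The IGF2BP proteins bind mRNAs, those of IGF2 among them, and affect their stability, translation and location. H3K9ac and H3K27ac, histone H3 acetylated at lysine 9 or lysine 27, mark promoters in use, and H3K27ac marks enhancers in use as well.

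The level of a peak is the authors' tag count scaled to a library of 10000000 tags, called normalised tags below, with the number of sequenced tags in brackets. Depth was about 3930000 tags in the astromal and 7570000 in the stromal H3K9ac library, both estimated from the values, and 13453902 and 17190695 in the H3K27ac libraries. The lowest peak held 5, 8, 8 and 9 tags in that order. The median peak held 9, 20, 18 and 20 tags, so an astromal H3K9ac peak rests on few tags, and a gene without one was not shown to lack the mark. The share of all H3K9ac tags that lay in peaks was 1.76% in the astromal and 5.81% in the stromal library. Where a stromal level is given as tags at the astromal depth, depth alone is allowed for and not this share. Intervals are 95% and cover counting error alone. In bulk chromatin, the share of cells with a mark and its level per cell cannot be told apart. Distances are from the peak centre to the transcription start site (TSS) of the gene on build hg19.

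The promoter stretches of 4 genes are shown for the different placing of their H3K9ac peaks: IRS1 and IGF2BP3, with an astromal peak near the TSS and no stromal one, INSR, with the reverse, and IGF2R, with both. Each is the 250 bases before the RefSeq start on GRCh38.p14, written along the strand of the gene. Capitals mark the E-box letters CACGTG, which read the same on both strands, and the GC-box letters GGGCGG, which read CCGCCC on the other strand. Matches to the GC-box letters may overlap one another.

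IRS1, chr2:226799821-226800070, minus strand: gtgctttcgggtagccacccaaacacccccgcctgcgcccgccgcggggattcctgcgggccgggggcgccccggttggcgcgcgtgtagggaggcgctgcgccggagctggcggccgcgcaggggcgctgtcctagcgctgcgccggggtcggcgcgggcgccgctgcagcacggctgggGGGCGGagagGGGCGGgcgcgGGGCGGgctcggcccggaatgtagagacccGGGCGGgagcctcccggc
IGF2BP3, chr7:23470492-23470741, minus strand: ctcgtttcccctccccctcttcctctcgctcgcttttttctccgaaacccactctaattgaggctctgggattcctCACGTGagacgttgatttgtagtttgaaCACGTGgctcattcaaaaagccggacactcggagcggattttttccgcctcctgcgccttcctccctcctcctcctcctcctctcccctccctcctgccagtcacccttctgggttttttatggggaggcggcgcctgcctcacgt
INSR, chr19:7294415-7294664, minus strand: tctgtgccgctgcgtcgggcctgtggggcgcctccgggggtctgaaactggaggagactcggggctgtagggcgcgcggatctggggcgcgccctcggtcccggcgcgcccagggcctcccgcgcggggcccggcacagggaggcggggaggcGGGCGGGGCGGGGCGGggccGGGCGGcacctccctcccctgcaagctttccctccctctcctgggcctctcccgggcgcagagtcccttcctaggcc
IGF2R, chr6:159968832-159969081, plus strand: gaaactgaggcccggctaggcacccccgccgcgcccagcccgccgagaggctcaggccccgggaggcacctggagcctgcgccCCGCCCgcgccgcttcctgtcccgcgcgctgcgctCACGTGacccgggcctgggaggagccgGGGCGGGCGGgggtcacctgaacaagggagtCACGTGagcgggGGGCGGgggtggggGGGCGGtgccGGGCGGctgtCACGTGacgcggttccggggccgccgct

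RefSeq promoters matched 7 of the 8 members, and IGF2BP2 had 2 entries, of which the first was used. CACGTG stood in 2 of these 7, with 3 matches in IGF2R and 2 in IGF2BP3, and in 6.31% of 34788 promoter stretches of the same length. GGGCGG stood in 6 of 7, in all but IGF2BP3, and in 42.6% of all. The second IGF2BP2 entry, left out of these counts, held neither set of letters and had a GC content of 32.8%. The GC content of the 7 ran from 56.8% in IGF2BP3 to 81.6% in IGF2BP2, against a median of 58.0% over all promoters. The RefSeq starts need not be those to which the hg19 distances refer, so no peak was placed inside these stretches, and a match of letters is not a bound site.

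**Figure D1:**
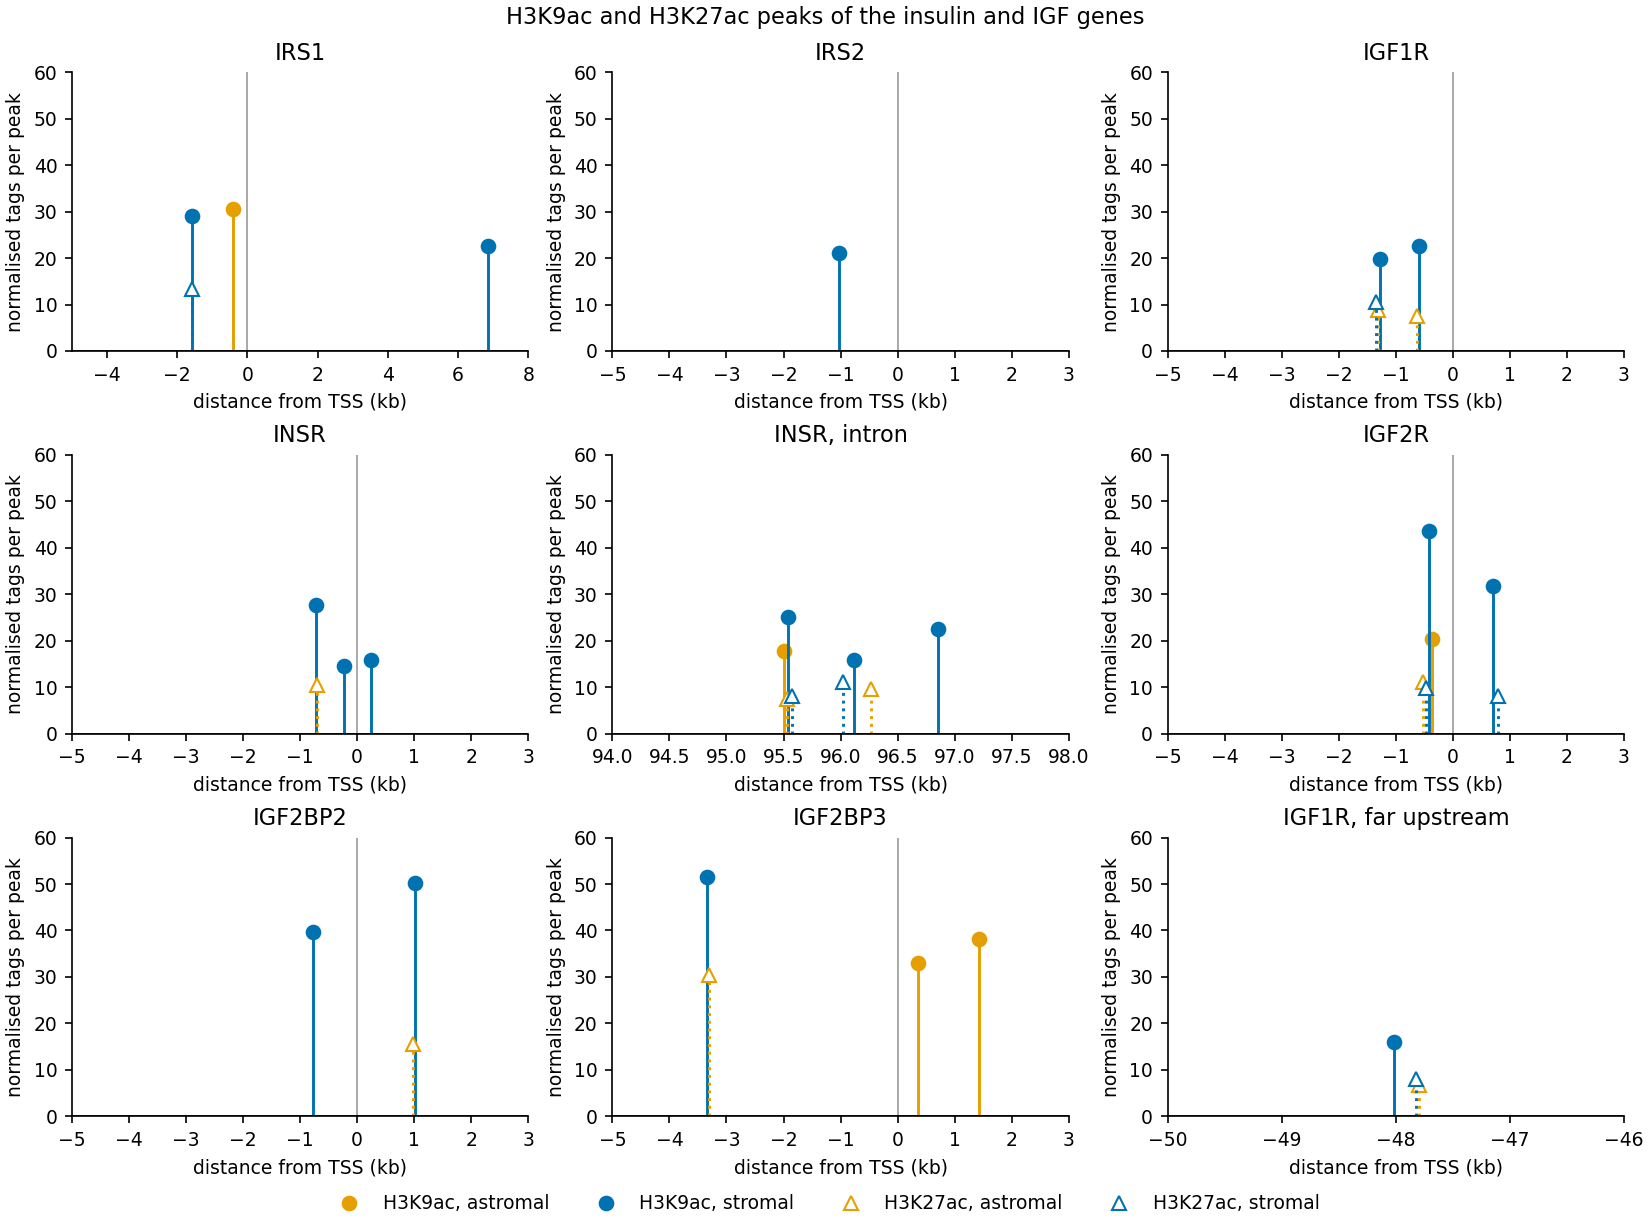
Peaks of the 7 genes by distance from the TSS in kb (x axis, negative upstream, separate panels for the INSR intron and the far IGF1R site) and level in normalised tags (y axis); filled circles are H3K9ac, open triangles H3K27ac, orange astromal and blue stromal, with 1 library each. The IRS1 and IGF2BP3 panels show astromal and stromal H3K9ac peaks at different places, while at IGF2R and in the INSR intron an astromal H3K9ac peak sits at a stromal one, 54 and 36 bp away.

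Among the receptor genes, INSR had the largest stromal sum of H3K9ac of all 8 members. In the astromal list it had 1 peak of 17.8 normalised tags (7 tags), in intron 2 at 95.5 kb downstream of the TSS (chr19:7198404-7198604). The stromal list held 6 peaks that came to 122 normalised tags. Of these, 3 lay in the same intron with 25.1 (19 tags), 15.9 (12 tags) and 22.5 (17 tags), and the first overlapped the astromal peak. The other 3 lay within 1 kb of the TSS, where the astromal list had none: 27.7 (21 tags) at 722 bp upstream, 14.5 (11 tags) at 227 bp upstream and 15.9 (12 tags) at 249 bp downstream. The promoter peaks summed to 58.1 and the intron peaks to 63.5 normalised tags.

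The INSR sums had a log2 ratio, stromal over astromal, of 2.77 (1.67 to 4.12), or 6.82-fold. Over the 5706 genes with peaks in both lists the median log2 ratio was 0.99, or 1.98-fold, and after centring on it INSR stood at 1.78 (0.68 to 3.14), at percentile 99.5 of these genes. That value counts peaks as well as their height: with the highest peak of each list alone the centred ratio was -0.033 (-1.32 to 1.44). At the 1 site shared by both lists, in intron 2, the stromal level was 1.41-fold the astromal one, a log2 ratio of 0.49 (-0.82 to 1.99).

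H3K27ac at INSR did not show the promoter difference in the same direction. The astromal list had 10.4 normalised tags (14 tags) at 703 bp upstream of the TSS, 16.2-fold over the surrounding 10 kb, and the stromal list had no peak there. In intron 2 the astromal peaks had 7.43 (10 tags) and 9.66 (13 tags), and the stromal ones 8.14 (14 tags) and 11.1 (19 tags). The sums were 27.5 astromal and 19.2 stromal. The centred log2 ratio was -0.35 (-1.07 to 0.37), so the counting interval included no difference. At the site where the peaks of both lists overlapped it was 0.13 without centring (-1.14 to 1.46). INSR was thus listed with promoter H3K9ac in the stromal library alone and with promoter H3K27ac in the astromal library alone. Scaled for depth alone, its H3K9ac promoter peaks would correspond to 10.9, 5.70 and 6.22 tags in the astromal library. There the lowest peak held 5 tags and the median peak 9. Why no astromal peak was listed at the promoter was not tested, and a missing peak was not shown to be a missing mark.

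IGF1R, whose kinase receptor binds both IGFs, had no astromal H3K9ac peak. Its 3 stromal peaks had 22.5 normalised tags (17 tags) at 602 bp upstream, 19.8 (15 tags) at 1.3 kb upstream and 15.9 (12 tags) at 48.0 kb upstream (chr15:99143647-99143857). Scaled for depth alone, the same levels would correspond to 8.82, 7.78 and 6.22 tags in the astromal list, between its lowest peak, 5 tags, and its median of 9. H3K27ac peaks, by contrast, were listed in both conditions. The astromal levels were 7.43 (10 tags), 8.92 (12 tags) and 6.69 (9 tags) at 636 bp, 1.3 kb and 47.8 kb upstream. The stromal list had 10.5 (18 tags) at 1.3 kb and 8.14 (14 tags) at 47.8 kb, and none at the first site. The sums, 23.0 astromal and 18.6 stromal, gave a centred log2 ratio of -0.14 (-0.90 to 0.62). At the 2 overlapping sites the uncentred log2 ratios were 0.23 (-0.90 to 1.42) and 0.28 (-1.03 to 1.67). The far upstream site carried weak but locally sharp H3K27ac, 13.2-fold over the surrounding 10 kb in the astromal and 17.5-fold in the stromal list.

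IGF2R was the 1 member with promoter H3K9ac in both lists. The astromal peak had 20.4 normalised tags (8 tags) at 358 bp upstream of the TSS (chr6:160389673-160389873). The stromal peaks had 43.6 (33 tags) at 412 bp upstream and 31.7 (24 tags) at 709 bp downstream in intron 1. The overlapping upstream site had a log2 ratio of 1.10 (-0.05 to 2.42), or 2.14-fold. The sums, 20.4 and 75.3, had one of 1.89 (0.81 to 3.16), or 3.69-fold, and 0.90 after centring (-0.17 to 2.18), at percentile 90.1. H3K27ac was close to level at the upstream site, with 11.1 (15 tags) astromal and 9.89 (17 tags) stromal, a log2 ratio of -0.17 (-1.26 to 0.93). The second stromal H3K27ac peak, 8.14 (14 tags) at 789 bp downstream, lay 80 bp from the second stromal H3K9ac peak. With it the centred ratio of the H3K27ac sums was 0.86 (-0.07 to 1.86). In both marks the stromal list of IGF2R thus held a site downstream of the TSS that the astromal list lacked. Scaled for depth alone, its H3K9ac level would correspond to 12.4 tags in the astromal library, whose median peak held 9. The stromal H3K27ac peak there was low, at percentile 18.2 of its list. Why neither astromal list held this site was not tested.

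**Figure D2:**
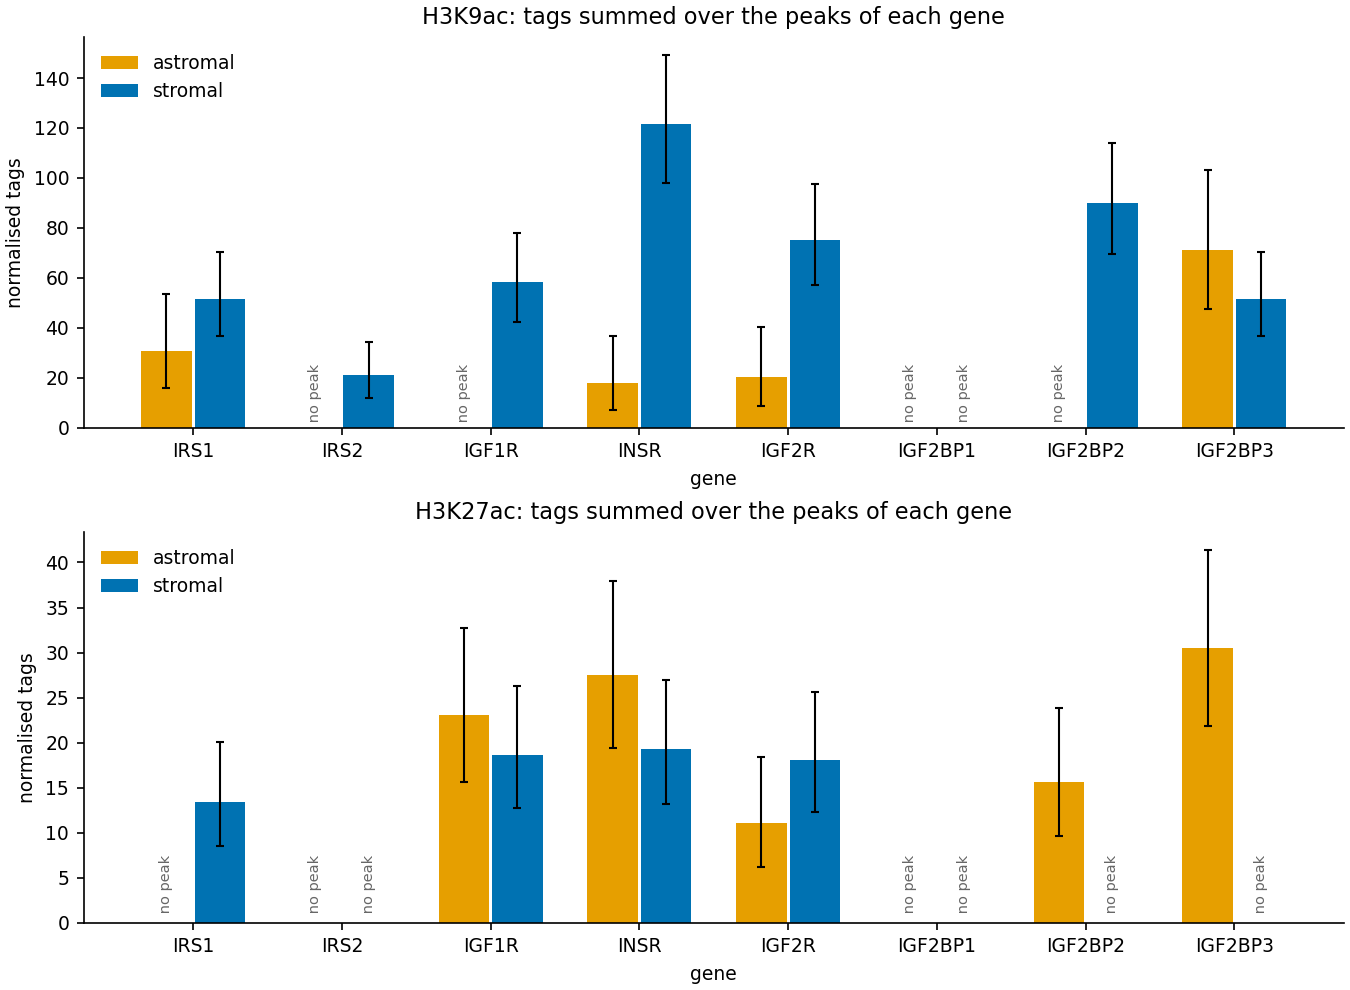
Normalised tags summed over the peaks of each gene (y axis, linear from 0) in the astromal (orange) and stromal (blue) library, H3K9ac above and H3K27ac below, with bars for 95% counting intervals. For H3K9ac the stromal bar is the taller in 6 of the 7 genes with peaks and IGF2BP3 is the exception. A higher stromal level was the rule over all genes, with 94.3% of the 5706 genes that had H3K9ac peaks in both lists. Of all 12186 genes, 52.2% had stromal H3K9ac peaks alone and 0.935% had astromal ones alone. The H3K9ac intervals of IRS1 and IGF2BP3 overlap, and those of INSR and IGF2R do not. These sums are not centred and count a site without a listed peak as 0. After centring, the interval of the IGF2R ratio included 0, and so did that of INSR with the highest peak. For H3K27ac the intervals of IGF1R, INSR and IGF2R overlap.

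Of the substrate genes, IRS1 carried peaks at different places in the 2 conditions. Its astromal H3K9ac peak had 30.6 normalised tags (12 tags) at 419 bp upstream of the TSS (chr2:227663825-227664025). The stromal peaks had 29.1 (22 tags) at 1.6 kb upstream (chr2:227664978-227665188) and 22.5 (17 tags) at 6.9 kb downstream in the intron. The nearest astromal and stromal centres were 1158 bp apart. The sums, 30.6 and 51.6, had a log2 ratio of 0.75 (-0.21 to 1.82), which was below the median gene after centring, at -0.23 (-1.20 to 0.84) and percentile 35.7. A stromal H3K27ac peak of 13.4 normalised tags (23 tags) lay 4 bp from the upstream stromal H3K9ac peak, and the astromal H3K27ac list had no peak within 2 kb of any IRS1 H3K9ac peak. Both marks therefore had a stromal peak at the same spot upstream of IRS1, and no H3K27ac peak of either list overlapped the astromal H3K9ac site. The stromal H3K27ac peak was 5.02-fold over the surrounding 10 kb, not far over the 4-fold that the caller asked for.

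IRS2 had the least signal of the 7 genes with peaks. Its only one was a stromal H3K9ac peak of 21.1 normalised tags (16 tags) at 1.0 kb upstream (chr13:110439839-110440049). No astromal H3K9ac peak and no H3K27ac peak of either list was tied to it. Scaled for depth alone, the stromal level would correspond to 8.30 tags at the astromal depth.

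The IGF2BP genes held the strongest single peaks of the group. IGF2BP3 had astromal H3K9ac peaks of 33.1 normalised tags (13 tags) in exon 1, 353 bp downstream of the TSS (chr7:23509542-23509742), and of 38.2 (15 tags) in intron 1, 1.4 kb downstream. Its stromal peak had 51.5 (39 tags) and lay elsewhere, 3.3 kb upstream in intergenic sequence (chr7:23513238-23513448). The stromal centre was 3701 and 4769 bp from the astromal ones. The sums of 71.3 and 51.5 gave a log2 ratio of -0.47 (-1.21 to 0.29). After centring, the ratio was -1.45 (-2.19 to -0.70), at percentile 1.24. With the highest peak alone it was -0.24 (-1.13 to 0.73). The sums rest on 2 astromal peaks and 1 stromal peak.

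At the upstream IGF2BP3 site the marks came from opposite conditions. The astromal H3K27ac list had a peak of 30.5 normalised tags (41 tags) at 3.3 kb upstream, 36 bp from the stromal H3K9ac peak. It was the highest H3K27ac peak of the group, at percentile 96.0 of its list, and 25.0-fold over input. The stromal H3K27ac list had no peak tied to the gene. The astromal peak exceeded the surrounding 10 kb by 4.32-fold, just over the 4-fold that the caller asked for.

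IGF2BP2 showed the same crossing of marks. It had no astromal H3K9ac peak, and its stromal ones had 50.2 normalised tags (38 tags) in intron 1, 1.0 kb downstream (chr3:185541708-185541918), and 39.6 (30 tags) at 780 bp upstream. Scaled for depth alone, these levels would correspond to 19.7 and 15.6 tags in the astromal library, whose median peak held 9 tags. The lowest astromal peak held 5 tags. After the same scaling the median gene with peaks in both lists was higher in the stromal list, 1.98-fold with summed peaks and 1.59-fold with the highest peak. The projected tags do not allow for this shift, and whether an astromal peak would have been listed was not tested. The astromal H3K27ac list had a peak of 15.6 (21 tags), 37 bp from the intron 1 peak, and the stromal H3K27ac list had none. This peak was 51.2-fold over input and 4.10-fold over the surrounding 10 kb. IGF2BP1, the third paralog, had no H3K9ac peak, so no H3K27ac peak was tied to it.

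**Figure D3:**
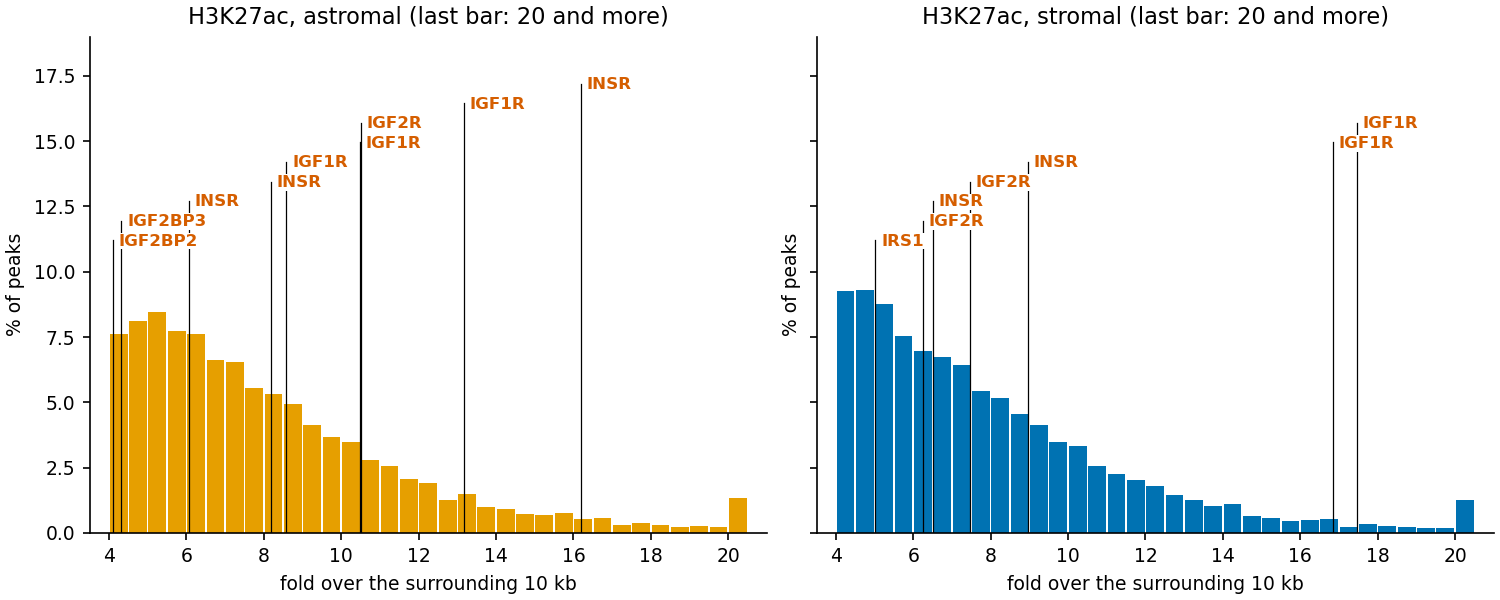
Share of H3K27ac peaks (y axis, %) by fold over the surrounding 10 kb (x axis, linear, with the last bar holding all peaks of 20-fold and more), astromal left and stromal right; black lines mark the peaks of the group. IGF2BP2 and IGF2BP3 sit at 4.10-fold and 4.32-fold, beside the lower limit of 4, and the far IGF1R peaks at 13.2-fold and 17.5-fold.

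Of all astromal H3K27ac peaks, 7.63% lay below 4.5-fold over the local region, against 2 of the 9 astromal peaks of the group, those of IGF2BP2 and IGF2BP3. The medians over all peaks were 7.28-fold astromal and 7.10-fold stromal. When H3K27ac peaks of at least 5-fold over the local region were kept, no member had H3K27ac in the astromal list only and 4 had it in neither. IRS1, whose stromal peak was 5.02-fold, narrowly stayed in the stromal list only.

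By list, 4 members had H3K9ac in both conditions (IRS1, INSR, IGF2R and IGF2BP3), beside 46.8% of all 12186 genes. The stromal list alone held 3 (IRS2, IGF1R and IGF2BP2), beside 52.2%, and none stood in the astromal list alone, beside 0.935%. Counting peaks within 1 kb of the TSS, of 10822 genes with such a peak, changed the picture: 1 member (IGF2R) had them in both lists, beside 47.4%, 3 (INSR, IGF1R and IGF2BP2) in the stromal list only, beside 51.4%, and 2 (IRS1 and IGF2BP3) in the astromal list only, beside 1.22%. These counts follow the lists that chose the genes and are given with no reading.

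The members were chosen with earlier results of these data known, so the H3K27ac counts, too, are given as a description. For H3K27ac, 3 members had peaks in both lists (INSR, IGF1R and IGF2R), beside 65.4% of all genes. One member, IRS1, had them in the stromal list only, beside 5.2%. The astromal list alone held 2 (IGF2BP2 and IGF2BP3), beside 7.64%, and 2 had none (IRS2 and the unplaced IGF2BP1), beside 21.8%. The 3 receptor genes were thus the members with H3K27ac in both conditions. IGF2BP2 combined stromal-only H3K9ac with astromal-only H3K27ac, as did 603 genes in all, or 4.95%.

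A gene counted as higher or lower when the centred ratio reached 2-fold and the counting interval did not include 0. With summed peaks, 1 of the 4 genes with H3K9ac in both lists was higher (INSR), beside 5.94% of the 5706 genes, and 1 was lower (IGF2BP3), beside 3.56%. With the highest peak of each gene none was higher, beside 0.21% of genes, and none was lower, beside 0.613%, so most calls over all genes were also lost. For H3K27ac, none of the 3 genes in both lists was higher, beside 5.54% of 7964 genes, and none was lower, beside 6.2%. With the highest peak none was called for H3K27ac either, beside 0.49% higher and 0.866% lower. The median centred H3K9ac ratio of the 4 members was 0.33 with summed peaks and -0.14 with the highest peak. For H3K27ac in the 3 genes it was -0.14 with summed and 0.29 with highest peaks, where IGF1R stood at 0.43 and INSR at 0.29, so neither median has a settled direction. Before centring, the median over all genes was 0.99 for H3K9ac and -0.17 for H3K27ac, with 94.3% and 37.3% of genes above 0.

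**Figure D4:**
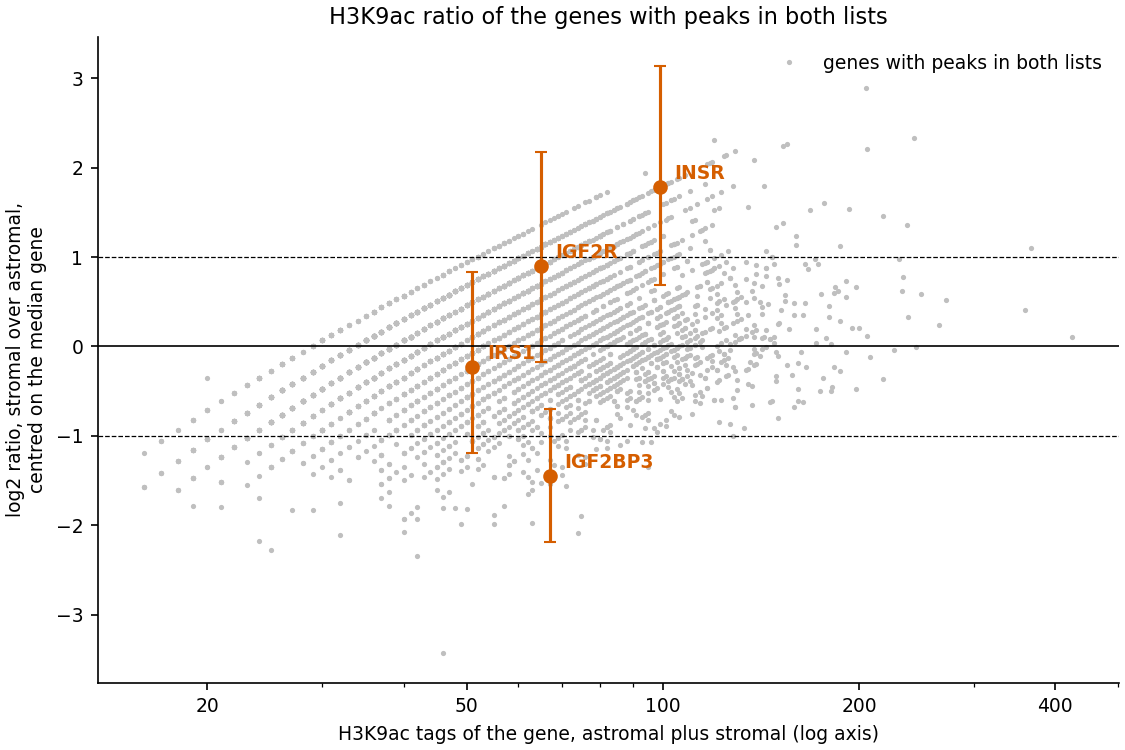
Centred log2 H3K9ac ratio, stromal over astromal (y axis), against the tags of the gene in both libraries (x axis, log scale) for the 5706 genes with peaks in both lists (grey) and the 4 members (orange, with 95% counting intervals); dashed lines mark 2-fold. INSR lies at 1.78 and IGF2BP3 at -1.45, while the intervals of IRS1 and IGF2R include 0.

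Of the 4 members with an astromal H3K9ac peak, IRS1 and IGF2BP3 had it away from their stromal peaks and INSR and IGF2R had it beside one. Of the 5 astromal H3K9ac peaks, 3 had their nearest stromal peak centre over 1 kb away, those of IRS1 and IGF2BP3, beside 1.99% of all astromal peaks. The INSR and IGF2R peaks had a stromal centre at 36 and 54 bp. Overlap by at least 1 bp was seen for 2 of 5 astromal H3K9ac peaks, beside 75.8%, and for 2 of 17 stromal ones, beside 26.6%. For H3K27ac it was seen for 4 of 9 astromal peaks, beside 60.8%, and 4 of 7 stromal peaks, beside 58.4%. Within 1 kb of the TSS lay 3 of the 5 astromal and 7 of the 17 stromal H3K9ac peaks, and none of the 22 covered the TSS itself. No share over all H3K9ac peaks stands beside these counts of position, so nothing is read from them.

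**Figure D5:**
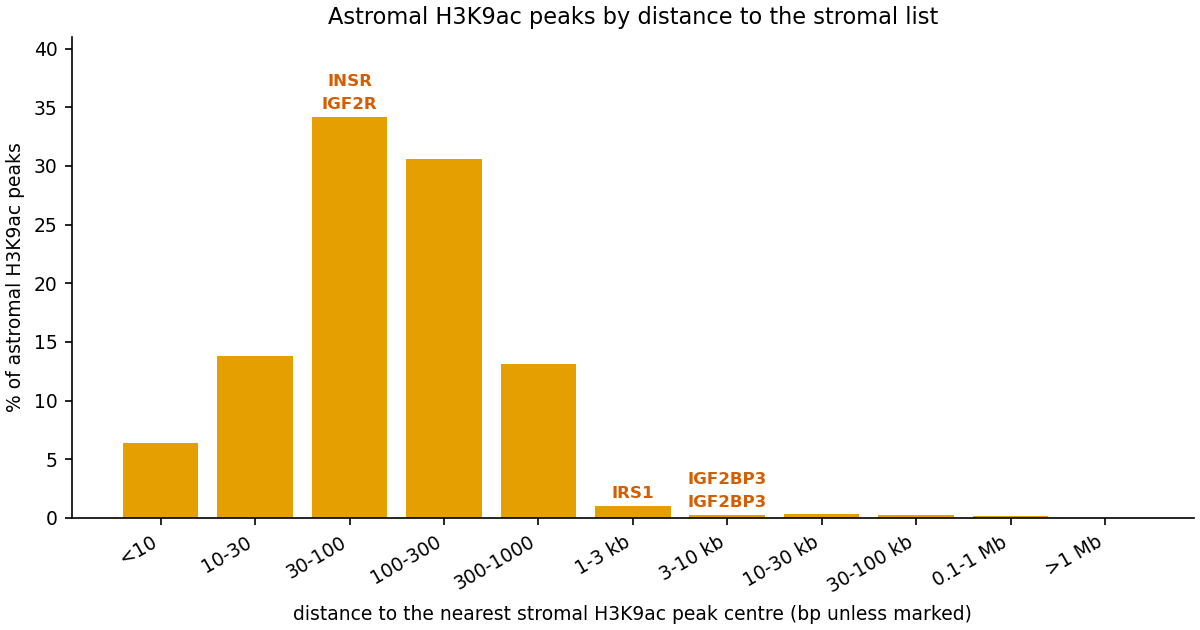
Share of the 7141 astromal H3K9ac peaks (y axis, %) by distance to the nearest stromal H3K9ac peak centre (x axis, classes of distance); names mark the 5 astromal peaks of the group. INSR and IGF2R fall in the fullest class, and IRS1 and both IGF2BP3 peaks fall in classes over 1 kb that hold few peaks.

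Within a condition, 2 of the 5 astromal H3K9ac peaks (40%, 5.27 to 85.3) had an H3K27ac peak centre within 2 kb, those of INSR and IGF2R, beside 89.1% of all astromal H3K9ac peaks. Within 5 kb it was 4 of 5, beside 90.5%, since the astromal H3K27ac peak upstream of IGF2BP3 lay 3665 and 4733 bp from its astromal H3K9ac peaks. In the stromal libraries it was 9 of 17 (52.9%, 27.8 to 77.0), beside 69.5%. Peaks of 1 gene share their locus, so these shares rest on fewer independent places than peaks. The farthest H3K27ac peak tied to a member lay 220 bp from an H3K9ac peak of the gene in either condition. Of those left out, only peaks within 30 kb of a member's TSS were searched, and the nearest lay 16.5 kb away.

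Around the members, 60 further genes of the pathway were followed: 3 ligands, 8 IGF-binding proteins, 19 adaptors and regulators at the receptor, and 30 genes of the PI3K and AKT branch. H3K9ac peaks named 44 of them, 25 in both lists, 19 in the stromal list only and none in the astromal list only, beside 46.8%, 52.2% and 0.935% of all genes. Of the ligand genes only IGF2 had a peak, a stromal one of 15.9 normalised tags (12 tags) that lay over 1 kb from its TSS, and INS and IGF1 had none. Of the binding protein genes, IGFBP6 with 66.1 and IGFBP4 with 29.0 were named in the stromal list alone and the other 6 in neither. The adaptors had 10 genes in both lists, 4 in the stromal list only and 5 in neither, and the PI3K and AKT branch 15, 12 and 3.

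Among the 25 pathway genes in both lists, 3 had a centred ratio of summed H3K9ac called higher, beside 5.94% of all genes, and 2 called lower, beside 3.56%, with a median of 0.01. None of these 5 calls held with the highest peak of the gene, an alternative added after the data were seen. INPPL1, which encodes the lipid phosphatase SHIP2, went from 20.4 normalised tags astromal to 127 stromal (centred log2 ratio 1.65, 0.62 to 2.90), from 1 and 4 peaks, and had 0.67 (-0.45 to 1.98) with the highest peak. The kinase gene MTOR went from 15.3 to 85.8 (1.5, 0.30 to 3.0), from 1 and 2 peaks, and had 0.93 (-0.34 to 2.47) with the highest. GRB2, an adaptor that links receptors to RAS, went from 25.5 to 111 (1.14, 0.19 to 2.25), from 1 and 4 peaks, and had -0.30 (-1.40 to 0.93) with the highest. Both genes called lower with summed peaks encode PI3K subunits, catalytic PIK3CB with 63.7 and 58.1 (-1.12, -1.86 to -0.35) and regulatory PIK3R3 with 68.8 and 54.1 (-1.33, -2.07 to -0.57). With the highest peak PIK3CB had -0.94 (-1.93 to 0.096) and PIK3R3 -0.30 (-1.40 to 0.93), and PHIP was called lower, with -1.0 (-1.94 to -0.031). Of the genes in the stromal list only, the RAS exchange factor gene SOS1 had the most with 108.3, followed by the kinase gene GSK3A with 74.0 and RHEB, an activator of the mTOR kinase, with 68.7.

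H3K27ac near the 44 pathway genes was listed in both conditions for 28, in the stromal list only for 2 (RPS6KB1 and PHLPP1), in the astromal list only for 6 (IGFBP4, GAB1, PDPK1, AKT1, MTOR and PHLPP2) and in neither for 8, beside 65.4%, 5.2%, 7.64% and 21.8% of all genes. With summed peaks none was called higher, beside 5.54%, and 2 were called lower, beside 6.2%, PHIP with -1.19 (-1.81 to -0.59) and RPTOR with -1.23 (-2.16 to -0.35). Their values with the highest peak were 0.041 (-0.87 to 0.96) and -0.65 (-1.64 to 0.31), and the median over the 28 with summed peaks was -0.07. MTOR had 19.3 normalised tags (26 tags) of H3K27ac in the astromal list and no stromal peak.

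The genes whose levels over the 4 libraries were most like those of a member were found by the Euclidean distance of log2(normalised tags + 1). They were DNAJC2 (0.18) and REPS1 (0.29) for IRS1, SSX2IP (0.05) and LRP5 (0.12) for IGF1R, and AKAP8L (0.31) and CHRAC1 (0.32) for INSR. For IGF2R they were PIAS3 (0.17) and RREB1 (0.24), and for IGF2BP2 CPNE7 (0.09) and CSNK1G3 (0.17). IRS2, with a single peak in 1 library, had the same profile as 81 genes, AACS and ABCC2 first by name. IGF2BP3 had the most distant neighbours, PCGF2 (0.41) and H2AFJ (0.44).

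The cell type of the libraries was checked by H3K9ac at marker genes. Of 5 epithelial markers, KRT18 was named in the astromal list and KRT8, KRT18 and KRT19 in the stromal list, with EPCAM and CDH1 in neither. Of 9 fibroblast markers, none was named in the astromal H3K9ac list and 4 in the stromal one, COL1A1 (17.2 normalised tags), COL1A2 (111), PDGFRA (23.8) and ACTA2 (29.0). COL3A1, DCN, LUM, PDGFRB and FAP had none. The fibroblast markers summed to 0 astromal and 181 stromal for H3K9ac, and to 89.2 astromal and 67.5 stromal for H3K27ac, all of it at COL1A2. The part of these markers in the values of the insulin and IGF genes was not tested. CDKN2A, which this line has lost, and the immune, endothelial, acinar and endocrine markers had no H3K9ac peak.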

How the data were processed

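The 4 ChIP libraries of MIA PaCa-2 spheroids each had a deposited peak list, and each group was 1 library. The submitters' processing notes name CASAVA 1.8.2, Bowtie, HOMER and build hg19. For H3K27ac the deposited lists give tags per peak as a signal normalised to 10000000 tags, tag counts, findPeaks scores, a focus fraction, p-values, and the fold (ratio) over input and over the surrounding 10 kb. Peaks were called at an FDR of 0.001 and at least 4-fold over input and over the local region, per the file headers. The deposited H3K9ac lists give the peak score, a signal per peak, with a focus fraction and the annotated gene and distance to its TSS, per the file headers; other quantities, such as this distance, are used as the authors deposited them. For H3K9ac, the thresholds of the caller were not given in the sources used here.

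The H3K9ac values rose in even steps worth 1 tag, which gave tag counts and depths. For H3K27ac, tag counts were computed from the depth given in the header. All values of both marks lay within 0.0858 tags of a whole number. Of the astromal H3K27ac counts, 13615 of 14489 equalled the deposited count, which does not check the estimated H3K9ac counts or depths. TSS positions on hg19 were rebuilt from the deposited distances. Peaks of a gene were those that name it. H3K27ac peaks were tied to a gene within 2 kb of its H3K9ac peaks. Ratios are of summed tags, scaled by depth and centred on the median of all genes with peaks in both lists, with Clopper-Pearson intervals at 95%, and the script was tested on simulated data. The text names all 8 members. Of the pathway genes it names those in the astromal list only, those past 2-fold and the 3 highest of the stromal list only, and for each member the 2 genes nearest in profile. The few other pathway genes named were chosen after their values were seen. The members and gene lists were chosen with earlier results of these data known. Alternatives changed the signal per gene, the peaks of a gene, centring, a minimum of 10 tags, overlap, the distance that ties the marks, and the local fold. Promoter sequences are from RefSeq, GRCh38.p14. Python 3.11.15, numpy 2.4.6, pandas 2.3.3, scipy 1.17.1 and matplotlib 3.10.9 were used.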

Additional observations from a re-analysis of the deposited data

How the results depend on the processing

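Of 98 values recomputed under alternatives for 32 results, 77 stayed within the limits set for an unchanged value, 20 moved and 1 called value reversed. The limits were the main interval for a ratio or share and a limited fold change for a count. For a median they were the range of the members, -1.45 to 1.78 for H3K9ac. These limits are wide, so unchanged values include changes of sign and of call. The reversed one was the centred H3K9ac ratio of INSR, 1.78 with summed peaks and -0.033 with the highest peak, which leaves out the added stromal peaks by construction. A further 9 of 38 ratio values, all of uncalled genes or of medians, changed sign. The median over members for H3K9ac, 0.33, became -0.14 with the highest peak and -0.80 with at least 10 tags. That for H3K27ac, -0.14, became 0.29 with the highest peak, 0.36 with at least 10 tags and 0.20 within 1 kb. The values of -0.80 and 0.20 rest on 2 genes each, since the other members had no ratio under that setting. The ratio of IGF2BP3, -1.45, was -0.24 with the highest peak and -0.47 without centring. The 1 member called higher for H3K9ac, INSR, became 0 with the highest peak and 2 without centring. The count was also 0 with peaks within 1 kb of the TSS and with peaks of at least 10 tags. There INSR had no ratio, since its only astromal peak held 7 tags and lay 95.5 kb from the TSS. The 1 called lower, IGF2BP3, became 0 with the highest peak and 0 without centring. It was 0 within 1 kb as well, where IGF2BP3 had no stromal peak and so no ratio. By H3K9ac list, peaks within 1 kb gave 2 members in the astromal list only in place of 0, 1 in both in place of 4 and 2 in neither in place of 1. Peaks of at least 10 tags gave 2 in both and 5 in the stromal list only, in place of 4 and 3. H3K27ac peaks of at least 5-fold over the local region left 0 members in the astromal list only and 4 in neither, in place of 2 and 2. With the highest peak, an alternative added after seeing the data, the pathway genes called for H3K9ac went from 3 to 0 higher and from 2 to 1 lower, and for H3K27ac from 2 to 0 lower. The share of astromal H3K9ac peaks with H3K27ac, 40%, was 0% (0 of 3) with at least 10 tags. Where a called member had no ratio under a filter, the filter itself moved the count. Filters also removed single peaks. The astromal H3K9ac peaks of INSR and IGF2R held 7 and 8 tags, below the minimum of 10. The astromal H3K27ac peaks of IGF2BP2 and IGF2BP3 stood at 4.10-fold and 4.32-fold, below the 5-fold setting. For the other moved values the cause was not tested. No paired analysis was possible because each group was 1 library, and for the same reason no replicate could be left out. Depth limits the astromal H3K9ac list most: its median peak held 9 tags.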

Other observations

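Some H3K27ac peaks lay within 30 kb of a member's TSS but outside the 2 kb limit. Upstream of IGF2BP3 the astromal list had peaks of 23.0 normalised tags (31 tags) at 19.8 kb and 22.3 (30 tags) at 20.4 kb. The stromal list had peaks of 13.4 (23 tags) at 19.8 kb and 19.2 (33 tags) at 20.7 kb. The H3K9ac peaks nearest to all 4 name RPS2P32, a ribosomal protein pseudogene. H3K27ac was therefore listed in both conditions at this distance, while at 3.3 kb it was listed in the astromal library alone. Near IRS1 the stromal list had a peak of 8.73 (15 tags) at 24.9 kb downstream of the TSS (chr2:227638525-227638699), 9.57-fold over the surrounding 10 kb and 18.0 kb from the nearest H3K9ac peak of either list.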
